A study of Mus musculus with 16 samples.

Results

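The genes described here are 10 genes of connective tissue, bone-lining and vessel-lining cells, the cell types that build the niche in which blood cells are made and held. They were taken by gene symbol: Cxcl12, Postn, Sele, Cdh5, Kdr, Lepr, Col1a1, Col1a2, Dcn and Sparc. They are 10 of the 20659 gene symbols on the array and were read by 16 of its 39429 probes, and all 10 passed the filter, which asked that 2 or more arrays give a signal well above background. The RNA was taken from CD11b+ cells, that is, cells carrying the integrin subunit made by Itgam, which marks neutrophils, monocytes and other myeloid cells. Spleens and bone marrow of male mice supplied the cells, in 4 labelled genotypes: wild type, STAT4-/-, STAT6-/- and HDC-/-. STAT4 and STAT6 carry cytokine signals to the nucleus, and HDC is the enzyme that makes histamine. The mice ate a control diet or a high-fat diet (HFD) for 3 months, which the submitters used to model atherosclerosis. Each of the 16 combinations was 1 array of RNA pooled from 5 mice, so no combination had a second array. The spread behind the p-values of the main fit is how far the HFD minus control difference varied between genotypes within a tissue. It is not a spread between repeat arrays. The age and strain of the mice and the deleted part of each gene are not given in the sources used here.

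Levels are given as the log2 signal minus the array's own 75th percentile. The share of probes well above background ran from 59.8% to 85.2%, the median spot signal was 74.0 to 183.9, and no spot was saturated. Itgam was well above background on all 16 arrays, with levels of 3.10 to 6.01 in spleen and 4.70 to 6.002 in marrow. Of the targeted genes, Hdc was low on the 4 HDC-/- arrays (mean 1.46, SD 0.39, n = 4) against wild type (5.202, SD 0.67, n = 4). Stat6 was lower on the STAT6-/- arrays by its brightest probe (2.73, SD 0.21, n = 4) than in wild type (3.70, SD 0.30, n = 4). Low Stat6 was not particular to these arrays, which ranged from 2.51 to 2.99 by this probe. The control-diet arrays labelled STAT4-/- stood at 2.535 in spleen and 2.30 in marrow, and the HDC-/- control marrow array at 2.95. Stat4 did not bear out the STAT4-/- label, since its mean there exceeded wild type (1.77, SD 1.56, n = 4, against 0.68, SD 0.64, n = 4, in wild type), so those arrays are named by their label alone. The excess lay on the HFD arrays of that label (3.46 in spleen and 2.71 in marrow, against 1.16 and 0.14 in wild type). Its control arrays stood at 0.52 in spleen and 0.37 in marrow, against 1.30 and 0.12 in wild type. All mice were labelled male, but the mean level of 3 Y-linked genes was -8.42 to -5.61 on the 4 control-diet arrays labelled STAT4-/- or HDC-/-, against -0.65 to 0.33 on the other 12. By correlation over 17857 features, 2 arrays lay nearer the other tissue: the HFD spleen array labelled STAT4-/- and the control-diet marrow array of HDC-/- mice. Both diets of a genotype shared a slide, while each slide held 1 tissue and either wild type with STAT4-/- or STAT6-/- with HDC-/-. Tissue therefore cannot be told apart from slide, nor can STAT6-/- or HDC-/- against wild type.

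In marrow, reticular stromal cells and bone-lining cells secrete CXCL12, the chemokine that holds stem cells, B cell precursors and neutrophils in place through its receptor CXCR4, and the leptin receptor LEPR marks many of these stromal cells. Fibroblasts and osteoblasts lay down type I collagen, made of the chains COL1A1 and COL1A2, together with the collagen-binding proteins decorin (DCN), SPARC and periostin (POSTN). Endothelial cells line the vessels and are marked by the adherens junction protein VE-cadherin (CDH5) and the VEGF receptor KDR, and activated or marrow endothelium shows E-selectin (SELE), on which leukocytes roll. None of these genes is a defining gene of CD11b+ cells. In a bulk sample, fewer cells of a type and less RNA per cell cannot be told apart.

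The promoter windows of 4 members called in the results below are shown first: Cxcl12 and Col1a2, which were lower in spleen, Postn, which was higher there, and Sele, which was called lower in HDC-/- mice, a call lost under 17 of 29 other settings. They are the 250 bases before a transcript's start, from RefSeq on mouse build GRCm38.p6, all on the plus strand, written 5′ to 3′ with capitals for matches to the TATA box (TATAAA), to the CCAAT box and to the GC box (GGGCGG). Of the 10 members, 7 had a window in the set used. Col1a1, also called lower in spleen, had none and is not shown. The windows lie at chr6:117168285-117168534 for Cxcl12, chr6:4505368-4505617 for Col1a2, chr3:54360857-54361106 for Postn (of its 2 windows, the one with a match) and chr1:164047984-164048233 for Sele.
Cxcl12: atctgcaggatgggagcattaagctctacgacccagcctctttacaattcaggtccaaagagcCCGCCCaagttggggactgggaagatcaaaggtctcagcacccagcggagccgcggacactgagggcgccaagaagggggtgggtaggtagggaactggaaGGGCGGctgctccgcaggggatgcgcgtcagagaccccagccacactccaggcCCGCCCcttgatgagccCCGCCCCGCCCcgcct
Col1a2: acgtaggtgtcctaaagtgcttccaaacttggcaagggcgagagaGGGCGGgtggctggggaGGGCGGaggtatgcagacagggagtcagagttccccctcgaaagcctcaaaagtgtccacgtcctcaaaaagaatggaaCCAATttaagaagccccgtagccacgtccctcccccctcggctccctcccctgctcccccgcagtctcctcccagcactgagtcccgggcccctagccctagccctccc
Postn: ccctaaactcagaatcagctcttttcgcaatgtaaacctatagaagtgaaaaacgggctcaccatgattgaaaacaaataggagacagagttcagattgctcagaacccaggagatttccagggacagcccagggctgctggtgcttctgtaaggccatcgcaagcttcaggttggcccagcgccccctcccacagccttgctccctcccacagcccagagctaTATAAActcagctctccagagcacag
Sele: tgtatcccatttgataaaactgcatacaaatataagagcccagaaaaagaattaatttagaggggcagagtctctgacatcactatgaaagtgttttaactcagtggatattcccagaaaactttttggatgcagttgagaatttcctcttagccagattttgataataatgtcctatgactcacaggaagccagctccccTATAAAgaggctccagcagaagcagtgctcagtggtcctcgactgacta
Motifs were searched on both strands. GGGCGG, the GC box bound by Sp1-family factors, matched 5 times in the Cxcl12 window, with 4 of the matches read on the minus strand as CCGCCC and the last pair overlapping by 1 base. The Col1a2 window held GGGCGG at 205 and 188 bases before the start and CCAAT at 109. TATAAA, the TATA box, began 26 bases before the start in the Postn window and 49 bases before it in the Sele window. Of 32851 mouse windows of the same length, 32.7% held GGGCGG, 33.8% held CCAAT and 12.4% held TATAAA. A match describes letters in the window and is not evidence of binding.

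Some of the niche genes differed between the spleen and marrow fractions. Cxcl12, Col1a1 and Col1a2 were lower in spleen than in marrow, and Postn was higher in spleen. These 4 of 10 members passed the limma test (adjusted p under 0.05 over 28471 features), 1 higher and 3 lower in spleen, where 31.7% of all features passed, 15.1% higher and 16.7% lower. The share of members called is thus near that of all features. The median change of the 10 members was -1.04, against -0.05 over all features.

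Cxcl12 was dim in spleen and spread over a wide range in marrow. Its brighter probe read 15.7, 25.7 and 56.5 (lowest, median and highest of 8 arrays) in spleen and 106.0, 331.5 and 8523 in marrow. The groups did not overlap, and marrow was the higher in 8 of 8 pairs of the same genotype and diet. The share of all features that separate the tissues without overlap is not given here. The lack of overlap of Cxcl12, and of Postn below, is therefore a description alone. The fitted log2 difference, spleen minus marrow, was -4.36 (SE 0.69, 20.6-fold, adjusted p = 0.0019), with 7 of 8 spleen and 8 of 8 marrow arrays well above background. The other Cxcl12 probe differed the same way (-2.76, SE 0.69, adjusted p = 0.0145). Over 31 alternative settings and left-out arrays, the difference of the brighter probe ran from -5.21 to -2.84 with an adjusted p of at most 0.0383. CXCR4, the signalling receptor of CXCL12, did not pass the test (Cxcr4, -0.58, SE 0.21, adjusted p = 0.0626), while Ackr3, the receptor that takes up CXCL12, was higher in spleen (4.10, SE 0.46, adjusted p = 0.000477, above background on 8 spleen and 3 marrow arrays). Dpp4, a peptidase that cleaves CXCL12, was also higher in spleen (2.29, SE 0.44, adjusted p = 0.0046).

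The type I collagen chains followed the same direction with more scatter. Col1a1 read 65.0, 87.9 and 105.4 in spleen and 44.2, 831.7 and 2635 in marrow. The 8 spleen arrays lay close together, and the marrow array of HDC-/- mice on HFD was the only marrow array whose unscaled signal fell below all of them. Its scaled level of -4.82 lay within the spleen range of -4.96 to -4.04. The difference was -3.28 (SE 0.59, 9.70-fold, adjusted p = 0.00367), with marrow higher in 7 of 8 pairs. Col1a2 read 41.0, 90.6 and 107.3 in spleen and 27.1, 233.4 and 1140 in marrow. Its difference was -1.90 (SE 0.52, 3.74-fold, adjusted p = 0.0204), again with the unscaled signal of the same HDC-/- marrow array below every spleen array. The scaled level of that array, -5.53, lay within the spleen range of -5.68 to -3.91. The Col1a2 call rested on few arrays: the adjusted p was 0.0545 without the wild-type HFD marrow array, 0.0534 without the STAT4-/--labelled control marrow array, 0.0501 without the STAT6-/- HFD spleen array, and 0.0609 (difference -1.03) without the 4 arrays of low Y-linked signal. On slides with STAT6-/- and HDC-/- arrays alone, neither Col1a1 (-2.88, adjusted p = 0.115) nor Col1a2 (-1.45, adjusted p = 0.30) passed, although Cxcl12 and Postn did.

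Decorin and SPARC, which bind collagen fibres, were higher in marrow in 7 of 8 pairs each but did not pass. Dcn read 5.93, 31.3 and 64.6 in spleen and 12.5, 47.0 and 608.7 in marrow (difference -1.48, SE 0.57, adjusted p = 0.0732). Sparc read 40.1, 82.6 and 148.9 in spleen and 34.6, 133.4 and 2006 in marrow (-1.42, SE 0.57, adjusted p = 0.0817), and its other probe gave -1.71 (SE 0.68, adjusted p = 0.0812). The groups overlapped for both genes. Dcn passed under 5 and Sparc under 4 of 31 alternatives, all with the same direction. With each spleen array paired with the marrow array of the same genotype and diet, both passed (Dcn adjusted p = 0.0381, Sparc adjusted p = 0.0294). Without the HDC-/- HFD marrow array both also passed (Dcn -2.11, adjusted p = 0.00361, and Sparc -2.05, adjusted p = 0.00345), and Sparc also did so without the STAT6-/- control marrow array (-1.84, adjusted p = 0.0381). Without the HDC-/- control marrow array the differences were -0.85 (adjusted p = 0.0777) and -0.79 (adjusted p = 0.0875).

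Periostin, an extracellular protein of bone surfaces and fibrous tissue, showed the opposite pattern. Postn read 191.4, 578.1 and 2456 in spleen and 4.15, 6.20 and 31.1 in marrow, with no overlap and spleen higher in 8 of 8 pairs. All 8 spleen arrays were well above background, but only 2 of 8 marrow arrays were, those of STAT4-/--labelled and HDC-/- mice on control diet. The fitted difference was 5.87 (SE 0.49, adjusted p = 0.000156), which rests on marrow signals mostly at background. Each marrow array was next set no lower than its detection floor, the lowest level of any probe well above background there. Postn was then at least 25.0-fold higher in spleen, a bound that holds for the main background correction alone. The fitted difference was 2.07 with normexp background correction and ran up to 6.42 over 31 settings with an adjusted p of at most 0.0243. The HFD spleen array labelled STAT4-/-, which by its whole profile lay nearer marrow, read 191.4 for Postn and 15.7 for Cxcl12, both on the spleen side. The HDC-/- control marrow array, which lay nearer spleen, read 31.1 and 8523, both on the marrow side.

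**Figure D1:**
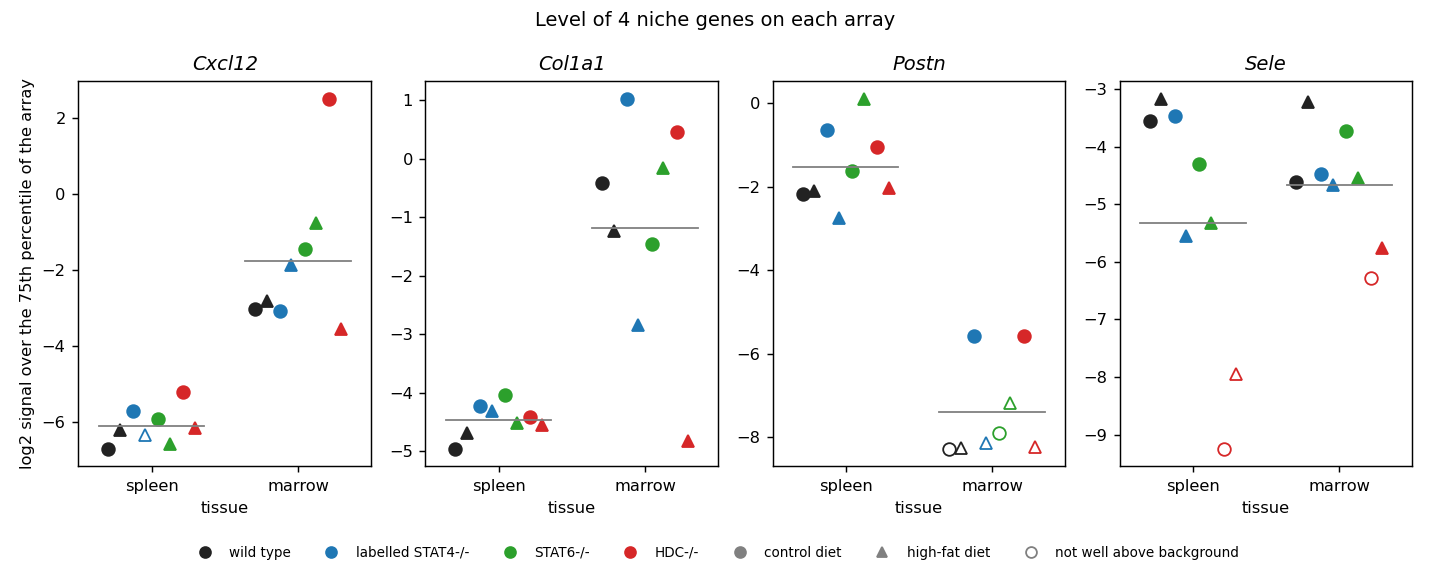
Levels of Cxcl12, Col1a1, Postn and Sele on each of the 16 arrays (vertical axis: log2 signal minus the array's 75th percentile, with its own range in each panel), by tissue, with colour for genotype, shape for diet and open symbols for a spot not well above background. Grey lines are means of 8 arrays. Cxcl12 and Postn separate the tissues without overlap, 1 HDC-/- marrow array lies with the spleen arrays for Col1a1, and the HDC-/- arrays lie lowest for Sele within each tissue.

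No endothelial member passed the test between tissues. Cdh5 read 32.6, 195.4 and 280.7 in spleen and 27.3, 41.2 and 521.8 in marrow, with spleen higher in 6 of 8 pairs (0.82, SE 0.41, adjusted p = 0.156). The spleen array with 32.6 and the marrow array with 521.8 were the pair of arrays that lay nearer the other tissue. Without the HDC-/- control marrow array Cdh5 passed (1.22, adjusted p = 0.0116), as it did without both of those arrays (1.48, adjusted p = 0.0013), and with normexp background correction the difference was -0.04 (adjusted p = 0.922). Sele read 3.45, 72.3 and 284.0 in spleen and 19.1, 58.7 and 175.1 in marrow, with spleen higher in 3 of 8 pairs (-0.66, SE 0.37, adjusted p = 0.198).

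The probes of Kdr, all designed on the same transcript, disagreed. The brighter, spotted once per array, read 419.7, 740.4 and 892.7 in spleen and 438.8, 761.3 and 1065 in marrow, and its scaled level was higher in marrow in 7 of 8 pairs (-0.52, SE 0.21, adjusted p = 0.0907). The other, spotted 10 times per array, read 77.6, 142.7 and 1272 in spleen and 23.2, 58.0 and 566.5 in marrow, and was higher in spleen in 8 of 8 pairs (1.18, SE 0.53, adjusted p = 0.115). Its repeated spots had a median SD of 0.10 log2 within an array (0.05 to 0.30). The highest values of this probe in each tissue came from HDC-/- mice on control diet (1272 and 566.5), where the brighter probe read 550.2 and 438.8. The direction therefore depends on the probe, and neither probe passed in the main fit. Under other settings the brighter passed without the HDC-/- control marrow array (-0.64, adjusted p = 0.0434), without both arrays nearer the other tissue (-0.72, adjusted p = 0.032) and with normexp background correction (-0.64, adjusted p = 0.0409). The mean of both probes gave 0.33 (adjusted p = 0.352). No direction is given for Kdr here.

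Lepr did not pass between tissues by its brightest probe, which read 63.7, 117.3 and 191.1 in spleen and 23.1, 79.1 and 136.5 in marrow. The difference was 0.15 (SE 0.29, 95% confidence interval -0.49 to 0.79, adjusted p = 0.713). With normexp background correction it was -0.48 (adjusted p = 0.171). Its other 3 probes were dimmer, above background on 6 to 9 arrays, and gave -1.24 (SE 0.60), 0.37 (SE 0.45) and 0.34 (SE 0.30), none past the threshold. The first of these, A_55_P2192662, read 419.4 on the HDC-/- control marrow array and at most 69.1 on every other array. LEPR exists as several splice forms, and the probes were designed on 3 different transcripts, so they need not read the same RNA.

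**Figure D2:**
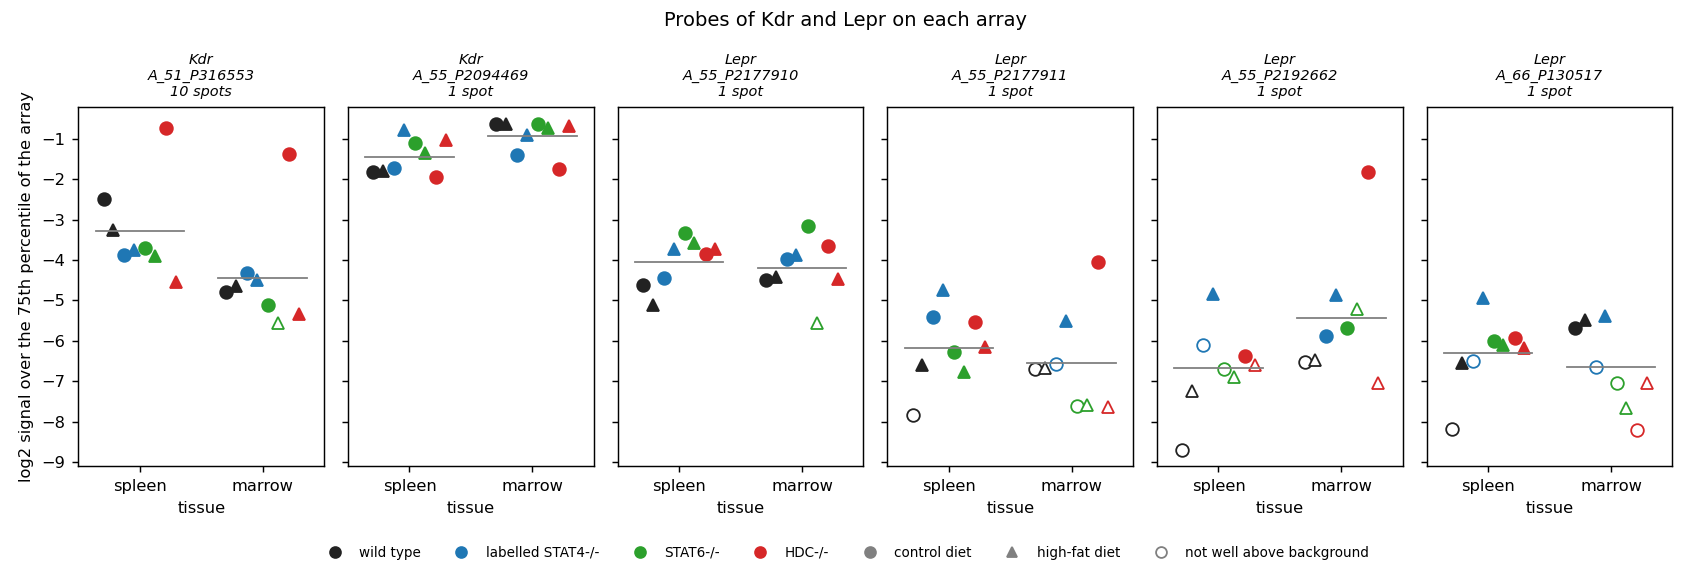
Levels of the 2 Kdr and 4 Lepr probes on each array (vertical axis: log2 signal minus the array's 75th percentile, shared by all panels), by tissue, with colour for genotype, shape for diet and open symbols for signals not well above background. The 10-spot Kdr probe lies higher in spleen (means -3.28 and -4.46) and the 1-spot probe higher in marrow (-1.44 and -0.92), while probe A_55_P2192662 of Lepr has 1 high marrow array at -1.82.

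**Figure D3:**
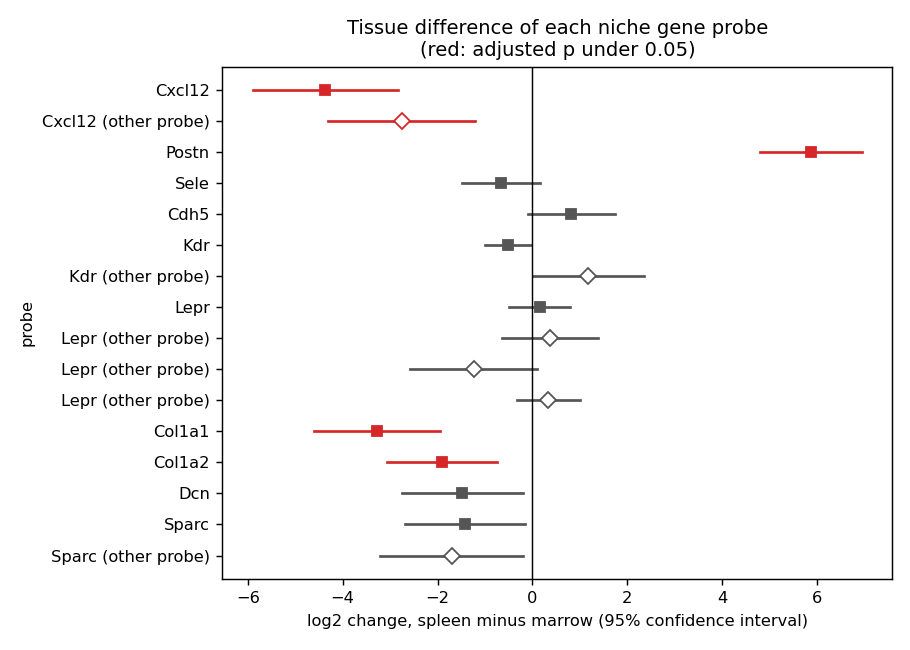
Fitted log2 difference, spleen minus marrow, with its 95% confidence interval for each member's brightest probe (squares) and other probes (open diamonds); red marks an adjusted p under 0.05. Both Cxcl12 probes, Col1a1 and Col1a2 lie below 0, Postn lies at 5.87, and the Kdr probes lie on opposite sides of 0.

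Genes of the wider niche lists were called in both directions. Of 14 marrow mesenchymal genes tested, 1 was higher and 4 were lower in spleen (median -0.77). Igfbp5, an insulin-like growth factor binding protein, fell furthest (-3.15, SE 0.65, adjusted p = 0.00619), and the granule and acute-phase protein haptoglobin, also made by myeloid cells, was lower by less (Hp, -0.82, adjusted p = 0.0153). Foxc1, a transcription factor of reticular cells, was called lower (-1.58, adjusted p = 0.0108) although it was above background on only 3 of 16 arrays. The adhesion molecule Vcam1, which splenic macrophages also make, was higher in spleen (0.98, adjusted p = 0.045). Of 11 osteoblast genes, 1 was higher and 3 were lower: Alpl rose (3.34, SE 0.61, adjusted p = 0.00385), while Spp1 (-2.10), Bglap2 (-1.89) and Ibsp (-0.86) fell. Alpl encodes the alkaline phosphatase of mineralising cells and Spp1 osteopontin, which macrophages also make.

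Of 19 fibrous matrix genes, 0 were higher and 4 lower in spleen, beside 15.1% and 16.7% of all features: Thbs1, which platelets store (-2.88, SE 0.22, adjusted p = 0.000134), Fn1 (-1.29), Loxl1 (-1.09) and Fbln1 (-0.78). Of 16 genes of collagen I synthesis and processing, 3 were higher and 3 lower (median 0.01). Adamts2, which trims the collagen propeptide (-2.21, adjusted p = 0.00117), and the prolyl hydroxylase P3h1 (-1.67, adjusted p = 0.0159) were lower, as was the lysyl hydroxylase Plod1 (-0.83), whereas the prolyl hydroxylase P4ha1 was higher (1.04, adjusted p = 0.00363). These enzymes act in many cell types.

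Of 22 further endothelial genes, 3 were higher and 5 lower in spleen (median -0.15). The sinusoidal scavenger receptor Stab2 was higher (2.36, SE 0.52, adjusted p = 0.00839), as was the junction protein Esam (1.73, adjusted p = 0.049). The hyaluronan receptor Lyve1 was lower (-2.43, SE 0.35, adjusted p = 0.00123), as was the receptor kinase Tie1 (-1.79, adjusted p = 0.00804). Of 10 splenic stroma genes, 2 were higher and 3 lower. Tnfsf11, the osteoclast factor RANKL, was higher (4.20, SE 0.50, above background on 7 spleen and 2 marrow arrays). The B cell chemokine Cxcl13 was above background on 6 spleen and 0 marrow arrays (at least 1.88-fold higher in spleen, adjusted p = 0.00689). Pdpn, podoplanin, was lower in spleen (-2.69, adjusted p = 0.000156), and Wt1 was above background on 0 spleen and 2 marrow arrays.

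Of 21 ligands and receptors of the members, 6 were higher and 2 lower in spleen. Besides Ackr3 and Dpp4, the collagen receptor Ddr1 (3.00, SE 0.38, adjusted p = 0.000733), the integrin subunits Itgb5 (1.32) and Itgb1 (1.01) and the collagen uptake receptor Mrc2 (0.90) were higher. The scavenger receptor Stab1, which binds SPARC, was lower (-1.16, adjusted p = 0.00385), as was Itgb3 (-0.77, adjusted p = 0.0126). The selectin ligands Selplg (-0.14), Cd44 (-0.31) and Glg1 (-0.08) and the KDR ligand Vegfa (-0.86, adjusted p = 0.118) did not pass. The remaining members of this list that did not pass were Vegfc (1.39), Itga2 (0.74), Tgfb1 (0.46), Nrp1 (0.11), Itga1 (0.01), Itgav (-0.17), Ddr2 (-0.34) and Lair1 (-0.60).

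Markers of other cells also moved with tissue, and their part in the niche gene differences was not tested. All 8 B cell genes tested were higher in spleen (Cr2 5.15, Ms4a1 4.86), with a summed level (the list's signals over the 75th percentile, added up) of 8.001 to 134.9 in spleen and 1.80 to 32.4 in marrow. Of 7 T cell genes, 6 were higher and 1 lower (summed level 24.2 to 54.3 and 13.9 to 32.7). Of 9 osteoclast genes, which share the bone surface with the collagen-making cells, 1 was higher and 4 were lower in spleen, led by Ctsk (-3.32, adjusted p = 0.000156), Calcr (above background on 0 spleen and 6 marrow arrays, at least 2.41-fold), Atp6v0d2 (-2.29) and Mmp9 (-1.84). Of 10 megakaryocyte and platelet genes, 0 were higher and 3 lower, led by Pf4 (-1.61), Clec1b (-1.32) and Gp1bb (-1.19). Of 7 myeloid genes, 0 were higher and 3 lower, among them Itgam (-1.29, adjusted p = 0.00986), Cebpe (-1.64) and Lyz2 (-0.62). Without the 4 arrays of low Y-linked signal, the counts higher and lower were 3 and 1 for endothelial, 0 and 2 for mesenchymal, 1 and 1 for osteoblast, 2 and 2 for splenic stroma, 0 and 1 for matrix, 1 and 2 for collagen processing and 4 and 1 for ligand and receptor genes. Without the 2 arrays nearer the other tissue, these counts were 5 and 6, 2 and 6, 1 and 5, 2 and 3, 1 and 4, 4 and 4, and 7 and 3 in the same order. Fewer of all features were also called without the low Y-linked arrays, as the closing section gives. The number without the 2 arrays nearer the other tissue is not given here, so both sets of counts are descriptions alone.

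The members ranked few of each other among the genes most like them in pattern. Over the 16 arrays and among 17164 genes above background on at least 8 arrays, the gene closest to Cxcl12 by Pearson correlation was Igfbp5 (r = 0.967), and Igfbp5 was also second for Dcn (r = 0.903) after Gucy1a1 (r = 0.904). Col1a1 was closest to the osteocalcin-family gene Bglap3 (r = 0.945), and Col1a1 and Col1a2 were among the 3 closest genes of each other (r = 0.936), and no other member was among the 3 closest of another. Sparc was closest to Mrvi1 (r = 0.929) and to Treml1, a platelet surface gene (r = 0.924). Postn was closest to Strip2 (r = 0.966) and Cadm1 (r = 0.963). Sele was closest to Vegfa (r = 0.893), Cdh5 to Abi2 (r = 0.935), the 1-spot Kdr probe to Myo3b (r = 0.976) and Lepr to Sorcs1 (r = 0.836). These values are descriptions: the 16 points share slides, tissues and scaling. They include the HDC-/- control marrow array, which stood far apart for Cxcl12, Cdh5 and Dcn, and no correlation without it is given here.

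The control-diet marrow array of HDC-/- mice stood apart for these genes. It gave the highest marrow level for 6 of 10 members (Cxcl12, Postn, Cdh5, Col1a2, Dcn and Sparc) and the lowest for 2 (Sele and the 1-spot Kdr probe), while the HFD marrow array of the same genotype gave the lowest for 5. The summed level of the 10 members was 10.4 there, against 3.50 on the next marrow array and 0.90 to 10.4 over all marrow arrays. On the same array the summed level was 56.1 for megakaryocyte and platelet genes (26.6 on the next), 32.4 for B cell genes (13.3 on the next) and 18.7 for endothelial genes (11.6 on the next), but 1.41 for osteoblast genes, the lowest of the marrow arrays. Of the marrow arrays it had the lowest level of Itgam on each of its 3 probes (-1.93, 1.71 and 4.70), and of all 16 arrays the lowest of Ptprc, the pan-leukocyte CD45 gene (3.53). It was also 1 of the 4 arrays with low Y-linked signal and 1 of the 2 nearer the other tissue. The part of these in the niche gene levels was not tested.

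**Figure D4:**
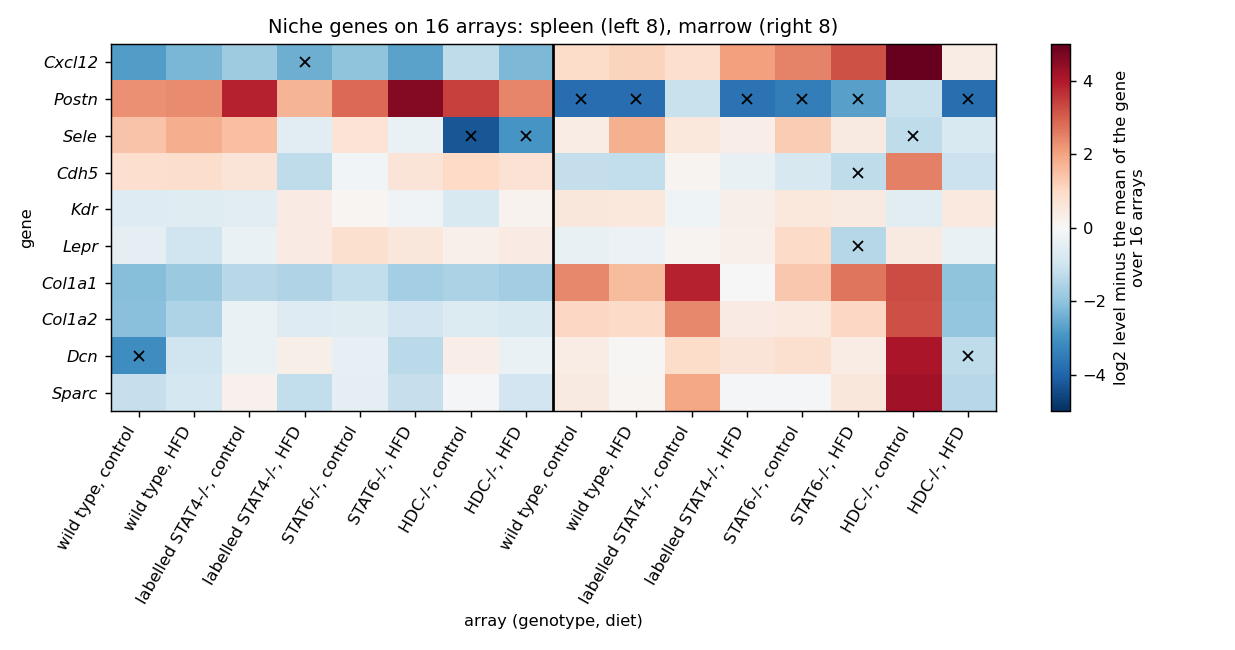
Level of each member on each array (columns, spleen left and marrow right of the line, labelled by genotype and diet) minus the mean of that gene over the 16 arrays, as log2 colour from -5 to 5; crosses mark signals not well above background. The HDC-/- control marrow column is red for Cxcl12, Cdh5, Col1a1, Col1a2, Dcn and Sparc, the Postn row splits by tissue with 6 marrow crosses, and the Sele row is blue with crosses in both HDC-/- spleen columns.

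No member passed the test for the high-fat diet. In spleen 0 of 10 members passed, and 0 of 28471 features did so (0%), with 1263 features and 0 members at an unadjusted limma p under 0.05. In marrow 0 of 10 members and 0 features (0%) passed, with 1730 features and 3 members (Col1a1, Col1a2 and Sparc) under 0.05 unadjusted. Adjusted p-values of the members were 0.779 to 0.985 in spleen and 0.696 to 0.893 in marrow. Over both tissues (0%) and for the difference of the diet effect between tissues (0%), 0 members passed as well, with 0 members under 0.05 unadjusted in each and 3545 and 317 features.

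In spleen, the HFD minus control differences of the members' brightest probes ran from -0.68 (Sparc, SE 0.80) to 0.41 (Kdr, SE 0.30). Other probes went beyond this range, from -1.16 (10-spot Kdr probe, SE 0.75) to 0.70 (Lepr probe A_66_P130517, SE 0.42). In marrow, 8 of 10 members had a negative estimate by their brightest probe, with a median of -1.14 against 0.11 over all features. That count depends on the probe. Kdr was at 0.36 (SE 0.30) by its 1-spot and -1.10 (SE 0.75) by its 10-spot probe. Lepr was at -0.76 (SE 0.41) by its brightest probe and 0.50 (SE 0.42) by A_66_P130517. Col1a1 was at -2.16 (SE 0.84), Sparc at -1.83 (SE 0.80), Col1a2 at -1.68 (SE 0.73), Dcn at -1.59 (SE 0.81) and Cdh5 at -1.16 (SE 0.58). The genotypes differed widely. For Col1a1 the differences by genotype were -0.82 in wild type, -3.86 in STAT4-/--labelled, 1.30 in STAT6-/- and -5.28 in HDC-/- mice. Those of Cxcl12 were 0.22, 1.22, 0.68 and -6.09 in the same order. Cdh5 and Dcn were lower on HFD in 4 of 4 genotypes, with differences of -0.06 to -3.61 and of -0.24 to -5.36. Without the HDC-/- control marrow array, which leaves that genotype out of the diet term, the estimates were -1.13 for Col1a1, -0.52 for Col1a2, -0.56 for Sparc, -0.33 for Dcn and 0.70 for Cxcl12. In wild-type and STAT6-/- mice alone, whose arrays had like Y-linked signals on both diets, they were 0.24, 0.22, 0.17, -0.38 and 0.45. The diet effects of single genotypes have no replicate.

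**Figure D5:**
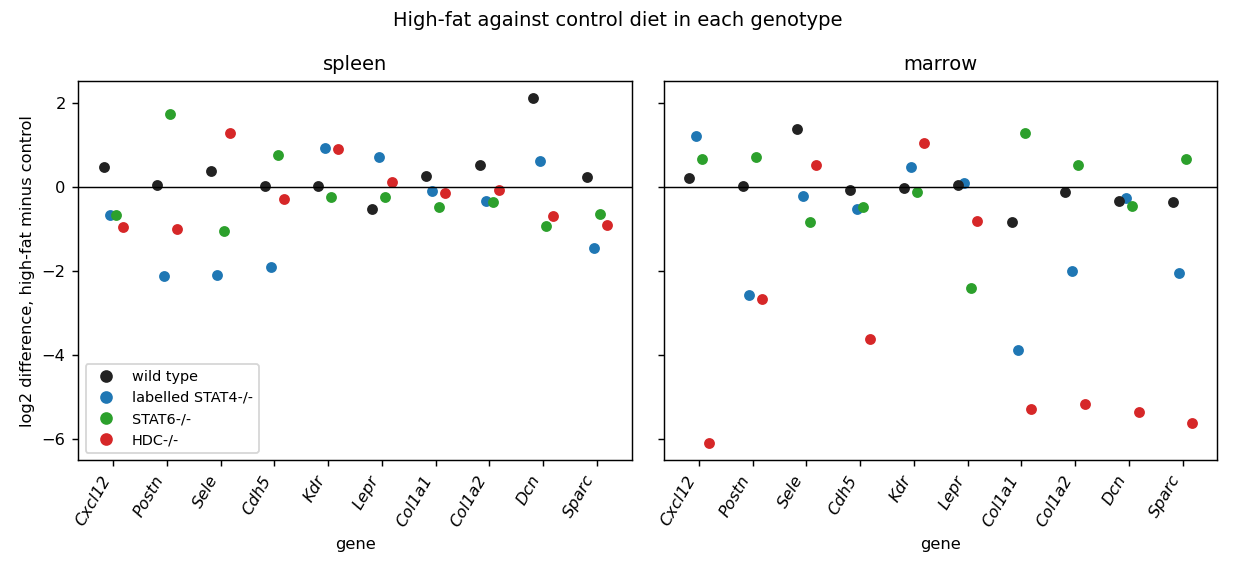
HFD minus control difference (vertical axis, log2) of each member in each genotype (colours), for spleen (left) and marrow (right), with 1 pair of arrays per point. Marrow points of HDC-/- mice reach -6.09 for Cxcl12, and wild-type marrow points lie between -0.82 and 1.38.

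Of the genotype comparisons, 1 called a member. Against wild type over both tissues, 0 members passed for arrays labelled STAT4-/- (5 features, 0.0176%, with 0.0105% higher and 0.00702% lower) and 0 for STAT6-/- (9 features, 0.0316%, with 0.0140% higher and 0.0176% lower), with 0 members under 0.05 unadjusted in either and 2797 and 1950 features. For HDC-/- mice 1 of 10 members passed, Sele, where 43 features (0.151%, with 0.0492% higher and 0.102% lower) did. By their brightest probes, the other 9 members had adjusted p-values of 0.505 to 0.91 in HDC-/- mice, with estimates from -0.51 for Col1a1 (SE 0.84) to 1.63 for Dcn (SE 0.81). Without the HDC-/- HFD marrow array, the estimates were 3.29 for Cxcl12 and 2.88 for Dcn. HDC-/- marrow then rests on the control-diet array alone, which stood apart for both genes.

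Sele, the endothelial selectin that inflamed vessels display, read 3.45 (control) and 7.29 (HFD) in spleen and 19.1 (control) and 23.2 (HFD) in marrow of HDC-/- mice. In wild type it read 179.5 (control) and 284.0 (HFD) in spleen and 58.8 (control) and 175.1 (HFD) in marrow. The HDC-/- range lay below the others: 3.45 to 23.2 in HDC-/-, 58.8 to 284.0 in wild type, 46.8 to 88.4 in STAT6-/- and 27.6 to 125.2 on arrays labelled STAT4-/-. The share of all features with such a separate HDC-/- range is not given here, so these ranges are a description alone. Sele was well above background on 1 of 4 HDC-/- arrays, that of HFD marrow, and on 4 of 4 arrays of each other genotype. The fitted difference from wild type was -3.67 (SE 0.52, 95% confidence interval -4.84 to -2.50, adjusted p = 0.0373). In spleen, where no HDC-/- array was above background, the detection floor put Sele at least 10.7-fold below wild type and at least 3.90-fold below STAT6-/- mice. These bounds too hold for the main background correction alone.

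The Sele estimate kept its sign under each of 29 other settings and left-out arrays, but the call did not hold under 17 of them. On the slides that HDC-/- shared with STAT6-/- mice, the difference from STAT6-/- was -2.84 (SE 0.52) with an adjusted p of 0.253, and 3 features were called in that comparison. Without the 4 arrays of low Y-linked signal it was -3.20 (adjusted p = 0.182), which leaves HFD arrays alone for HDC-/-, and without the 2 arrays nearer the other tissue it was -3.57 (adjusted p = 0.0877). Leaving out 1 array ended the call for each wild-type array (adjusted p 0.124 to 0.229), each HDC-/- control array (0.125 in marrow, 0.138 in spleen), each STAT6-/- spleen array (0.0659) and each STAT4-/--labelled marrow array (0.0779). Quantile normalisation gave -3.20 (adjusted p = 0.0959), normexp background correction -1.51 (adjusted p = 0.421), genotype terms shared by the tissues an adjusted p of 0.068, and a random slide block with those terms 0.067.

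Whether a genotype difference itself differed between tissues was tested next. For arrays labelled STAT4-/-, 0 of 10 members and 0 features (0%) passed, with 5235 features and 0 members under 0.05 unadjusted. For STAT6-/- mice 0 members passed where 7.49% of features did (7.47% higher and 0.0211% lower), and for HDC-/- mice 0 members passed where 16.1% did (16.1% higher and 0.0211% lower). The median over all features was 0.59, 0.44 and 0.57 in the 3 tests, and with quantile normalisation 0 features passed for STAT6-/- or HDC-/-. These member counts use each gene's brightest probe. A dimmer Lepr probe, A_66_P130517, above background on 9 of 16 arrays, passed for HDC-/- mice (3.35, SE 0.84, adjusted p = 0.0247). For STAT6-/- mice the same probe gave 3.07 (SE 0.84, adjusted p = 0.054). Among the brightest probes, Sele came nearest in HDC-/- mice, with the estimate more negative in spleen than in marrow (-3.14, SE 1.05, adjusted p = 0.0698). It passed with median scaling (-3.81, adjusted p = 0.0478), without either spleen array labelled STAT4-/- (-3.14, adjusted p = 0.0454) and without the HDC-/- HFD spleen array (-4.25, adjusted p = 0.0341), whereas it was -0.45 with normexp background correction (adjusted p = 0.833) and -2.04 without the HDC-/- control spleen array (adjusted p = 0.282). Over 26 alternatives its adjusted p ran from 0.0341 to 0.833. Without the HDC-/- HFD marrow array, the estimates were -5.02 for Cxcl12 and -3.58 for Cdh5. HDC-/- marrow then rests on the control-diet array alone, which stood apart for both genes. Without that control-diet array instead, the Col1a2 estimate was 3.77, with HDC-/- marrow resting on the HFD array alone. Of the niche lists, genes called in these tests numbered 1 endothelial, 2 splenic stroma and 1 ligand or receptor gene (Mrc2, 2.81, adjusted p = 0.024) for STAT6-/- mice, and 2 endothelial, 1 osteoblast, 2 splenic stroma, 1 matrix and 1 collagen processing gene for HDC-/- mice.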

How the data were processed

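Cy3 signals of 16 one-colour Agilent arrays were used, 1 for each genotype, tissue and diet, of RNA pooled from 5 mice. The deposited intensity values are background-subtracted signals that the authors made with Agilent Feature Extraction 11.0.1.1, per the file headers, with no scaling between arrays. Groups came from the labels. Probes were named through their transcripts and a RefSeq gene table (27234 of 39429 matched), so positions are given only for the RefSeq promoter windows. Spots marked as outliers were left out, with 305 probes that had no usable spot on some array. Each array was scaled to its 75th percentile on the log2 scale, a gene with several probes was represented by the brightest, and features well above background on at least 2 arrays were kept. A bound ("at least N-fold") sets the bright mean against the dim arrays' levels, none taken below the array's detection floor. That floor was the lowest level of any probe well above background on the array. Probes not well above background can lie above it, so a bound is not a strict limit.

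limma 3.58.1 in R 4.3.3 fitted 1 mean per genotype and tissue plus tissue-specific diet terms, which left 6 residual degrees of freedom. Two-sided p-values were adjusted by the Benjamini-Hochberg method across 28471 features and called at an adjusted p under 0.05. Array number limits precision. Members and lists were chosen with earlier results of these data known. Every member is described in every comparison. From each list, up to 4 called genes with the largest tissue change are named, with all ligands and receptors, and the 3 genes most like each member by Pearson correlation were computed. Alternatives of scaling, background correction, filter, probe rule, model and arrays were run. The normexp alternative (offset 50) used median spot and background signals, since the mean was not used here. Alternatives with STAT6-/- as reference, with a slide block, with tissues paired by genotype and diet, and without the arrays of low Y-linked signal were added after seeing the data. The fit was tested on simulated data: of 200 features changed by 2 on the log2 scale, 86% were recovered for tissue, 59.5% for HFD in marrow and 50.5% for HDC-/-, and by 1, 15%, 0% and 0.5%. The simulated noise was independent and normal with spreads shuffled over features, and no array was set apart. The shares are therefore not recovery rates of the members, whose SEs for HFD in marrow ran from 0.30 (Kdr) to 0.97 (Cxcl12). Figures were drawn with matplotlib 3.10.9.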

Additional observations from a re-analysis of the deposited data

Results flagged for a closer look

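Among 20 groups tested (10 members in 2 tissues of 8 arrays each), 3 held a sample set far apart from the others by Dixon's gap test, which chance does in about 1 of 20 groups. All 3 were marrow levels on the HDC-/- control-diet array. Cxcl12 stood at 2.53 there, with the next highest marrow array at -0.76. Cdh5 stood at -1.504, with the next at -3.90, and Dcn at -1.28, with the next at -4.46.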

How the results depend on the processing

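Members called between tissues were 4 in the main analysis, 7 with normexp background correction, under which the median of all features moved to -0.52, 2 on STAT6-/- and HDC-/- arrays alone, and 3 to 6 with 1 array left out. Features called there were 4937 on wild-type and STAT4-/--labelled arrays, 2791 on STAT6-/- and HDC-/- arrays, 3690 without the 4 arrays of low Y-linked signal, and 5675 (without wild-type control marrow) to 10510 (without HDC-/- control marrow) with 1 array left out. The number of all features called between tissues with normexp is not given here, so the 7 members called there are a description alone. No diet comparison called a feature or member under any setting run.

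For arrays labelled STAT4-/- against wild type, 18 features were called with genotype shared by tissues, 18 with a slide block (consensus correlation -0.0065), 2 without the low Y-linked arrays and 3 to 8 with 1 array left out. For STAT6-/-, 1 array left out gave 3 to 16. For HDC-/-, 23 features were called with normexp, 69 with trend and robust variances, 19 without the pair of arrays nearer the other tissue, 4 without the low Y-linked arrays, 3 against STAT6-/-, and 7 (without wild-type HFD marrow) to 238 (without HDC-/- HFD marrow) with 1 array left out. HDC-/- members called were 0 with quantile normalisation, normexp, shared genotype terms, the slide block, without either set of doubted arrays and against STAT6-/-, and 0 to 3 with 1 array left out.

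For STAT6-/- by tissue, 0 features were called with median scaling, quantile, normexp, trend and robust variances or without the low Y-linked arrays, and 0 to 2998 with 1 array left out. For HDC-/- by tissue, 1992 were called with median scaling, 0 with quantile, 0 with normexp, 2095 without that pair of arrays, 0 without the low Y-linked arrays and 0 to 5816 with 1 array left out. Members called there were 1 with median scaling, 1 without that pair and 0 to 2 with 1 array left out. The cause of these changes was not tested. Of 3100 member values under these settings, 23 lost a call, 24 gained one, 235 uncalled values moved by over 1 SE, and 0 called values changed sign.

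The means of the main model already hold slide, so the planned slide block could not be fitted with it. Paired by genotype and diet, an analysis chosen after seeing the data, spleen and marrow arrays gave 9308 features and 6 members called, Dcn and Sparc being added. Depth limits Postn in marrow, Sele in HDC-/- spleen and most Lepr probes, whose signals were near background.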
